A study of Mus musculus with 6 samples.

Results

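The exonic circular RNAs (circRNAs) that an earlier publication had already listed were the largest class of circRNAs in these mouse lacrimal glands. They were taken from the deposited circRNA table as the entries annotated as exonic whose source is neither circBase, a public circRNA catalogue, nor the mark for circles in no earlier list. All of them carry the same earlier publication as their source. There were 1061 such circRNAs among 2541 (41.8%), they came from 788 host genes, and they held 5100 of the 14332 junction reads (35.6%). They are called published-list circRNAs here. The remaining exonic circRNAs were 447 listed in circBase and 521 in no earlier list.

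Lacrimal gland RNA came from 3 AQP5-/- and 3 wild type (AQP5+/+) libraries of C57BL/6 mice aged 6 months. The AQP5-/- mice were made with CRISPR/Cas9 in fertilized eggs and lack the water channel aquaporin 5, so the deletion is not limited to the gland. The sources used here do not give the sex of these mice. The study's figure legends count 3 mice per genotype for the sequencing. The labels do not say whether each library is a separate animal. Each p-value rests on the spread among these 6 libraries, which may be technical if libraries share an animal. Ribosomal RNA was removed before sequencing, and the value of a circRNA is its number of junction reads in a library.

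A circRNA forms when a splice donor is joined backwards to an acceptor that lies upstream of it, which closes the exons in between into a loop without free ends. Such loops resist exonucleases and can build up in cells that turn them over slowly. Some are known to bind microRNAs or proteins, but for most no function is known. Since a loop has a single back-splice junction whatever its length, junction reads of different circRNAs can be compared without dividing by length. In whole glands, fewer cells of a type and less RNA per cell cannot be told apart.

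The labels of the libraries were checked on the deleted gene first, by its mRNA in FPKM, reads scaled by transcript length and library total. Aqp5 mRNA was at 0.378, 0.177 and 0.170 FPKM in AQP5-/- libraries, against 154, 89.0 and 142 FPKM in wild type libraries (limma, log2 fold change of -7.41 with a standard error of 0.233, adjusted p = 8.62e-06). The libraries held 2032 to 2953 junction reads each, so single circRNAs rest on few reads. The 5 acinar markers included Aqp5 itself and secretory genes such as Car6 and Ltf. They summed to 1829 to 4089 FPKM in AQP5-/- and 2984 to 6025 FPKM in wild type libraries, with overlap. Car6 was the largest part of this sum in each library, at 3347, 1197 and 858 FPKM in AQP5-/- and 3532, 2101 and 4719 FPKM in wild type libraries. The log2 fold changes were -1.12 for Car6 and -0.59 for Pigr, but 0.14 for Ltf and 0.10 for Bhlha15. The acinar markers as a set thus did not go 1 way. The 3 duct markers summed to 106 to 122 FPKM in AQP5-/- and 81.4 to 93.6 FPKM in wild type libraries, without overlap. Krt8 held most of this sum, and Krt19 was under 1 FPKM in each library. Krt7 overlapped, at 3.9, 4.5 and 3.5 FPKM in AQP5-/- and 5.7, 4.1 and 3.6 FPKM in wild type libraries. The non-overlap was thus that of Krt8 and not of the markers as a set. The part of acinar or duct markers in the results was not tested. Transcripts of 4 Y-linked genes (Ddx3y, Uty, Eif2s3y and Kdm5d) summed to 49.7, 58.0 and 52.1 FPKM in AQP5-/- libraries, against 0.320, 33.0 and 0.185 FPKM in wild type libraries 1, 2 and 3. Wild type library 2 was thus the only wild type library with Y-linked transcripts, and it alone held skeletal muscle transcripts (30.2 FPKM summed over 3 markers, at most 1.5 FPKM in each other library). The part of the Y-linked transcripts and of the muscle transcripts in the results was not tested. With wild type library 2 left out, genotype coincides with the presence of Y-linked transcripts, so such fits cannot tell them apart. A term for Y-linked transcripts leaves wild type library 2 alone against the AQP5-/- libraries.

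Of the published-list circRNAs, 8 span a microRNA gene that RefSeq (GRCm38.p6) places on the same strand, and 14 mature sequences of these 8 genes were found in the RefSeq table. The 11 sequences of the 6 circles with 3 or more reads are printed because such a precursor lies between the ends of the circle, either in an exon that the circle keeps or in an intron, which could not be decided here. The 2 circles with most reads span Mir7235 in Tbkbp1, an adaptor of the kinase TBK1, and Mir7021 in Prdm2, a zinc finger histone methyltransferase. Capitals mark the seed, bases 2 to 8 from the 5′ end, which pairs with target RNAs. The 14 seeds were all different.
mmu-miR-7235-3p: uCUGACUUcuugcuucucuccuc
mmu-miR-7021-3p: uCUCUGUGcuucugcuccuuag
mmu-miR-7021-5p: aUAGGAGUugauuacagagcaa
mmu-miR-7038-5p: uGUAGAAGgaagggcugcugug
mmu-miR-7038-3p: cACUGCUCcugccuucuuacag
mmu-miR-6932-5p: uUGUAGGUgaaguagacuuggc
mmu-miR-6932-3p: uCUGUUCUgcuuccucugcag
mmu-miR-1843a-5p: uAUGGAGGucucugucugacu
mmu-miR-1843a-3p: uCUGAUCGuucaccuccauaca
mmu-miR-3084-5p: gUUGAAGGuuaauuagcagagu
mmu-miR-3084-3p: uUCUGCCAgucuccuucagac

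The circRNA of Tbkbp1 (chr11:97139472-97149615, 1186 nt) had 0, 0 and 6 reads in AQP5-/- and none in wild type libraries. That of Prdm2 (chr4:143131710-143142234, 4501 nt) had 6, 0 and 0 reads in AQP5-/- and none in wild type libraries. All reads of each thus came from 1 library. The circle around Mir7038 in Eif3b, a subunit of a translation initiation factor (chr5:140425262-140427567), had 3 reads in AQP5-/- and 0 in wild type libraries. Those around Mir6932 in Helz, an RNA helicase, Mir1843a in Dcaf5, a ubiquitin ligase adaptor, and Mir3084-1 in Cbwd1 had 3 reads each in wild type and 0 in AQP5-/- libraries. Each of the 8 had reads in a single genotype, 4 in AQP5-/- and 4 in wild type libraries, with 2 to 6 reads in all. With so few reads, a circle without a read in a genotype may be there below what this depth can detect. Of all 2541 circRNAs, 920 had reads in AQP5-/- only, 859 in wild type only and 762 in both. The single genotype of the 8 is thus no result about circles around microRNA genes.

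Published-list circRNAs recurred less often than those of circBase and more often than those in no earlier list. Reads in a single library were found for 605 of the 1061 (57.0%), reads in 2 libraries for 234, and reads in at least 3 for 222 (20.9%), against 57.5% of the circBase circRNAs and 7.10% of those in no list. All 6 libraries held 23 of them. The class is one of rare circles, as is that in no list. Of the 1061, 397 had 2 reads in all, 578 had 3 to 9 and 86 had 10 or more. These 86 (8.11%) held 33.9% of the reads of the class. Of the circBase circRNAs 33.1% had 10 or more reads and held 76.2% of their reads. For those in no list the values were 2.88% and 25.6%.

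**Figure D1:**
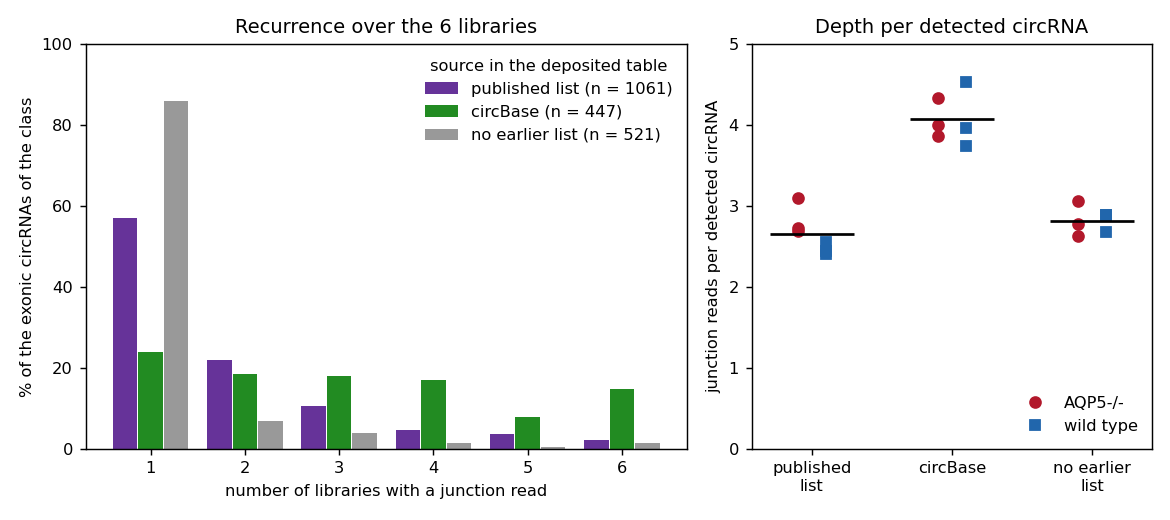
Left, share of the exonic circRNAs of each source (y axis, %) by the number of libraries in which they had a junction read (x axis), where 57.0% of the published-list circRNAs sat in 1 library and 2.17% in all 6. Right, junction reads per detected circRNA in each library (circles, AQP5-/-; squares, wild type; lines, means of the 6 libraries), where the published list averaged 2.65 and circBase 4.07.

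Within a library, a detected published-list circRNA had on average 2.65 ± 0.253 reads, against 4.07 ± 0.299 for circBase circRNAs (SD, n = 6 libraries), and was lower in 6 of 6 libraries (p = 0.031, the smallest possible, adjusted p = 0.0625 over 8 comparisons, two-sided exact sign-flip permutation test). Against the 2.82 ± 0.158 reads of circRNAs in no list, it was lower in 4 of 6 (p = 0.1875, same exact permutation test). Of the published-list circRNAs detected in a library, 68.8% ± 4.53 were found in another library too, against 92.3% ± 1.66 for circBase and 33.0% ± 7.63 for no list, differences of -23.6 and 35.8 percentage points with the same sign in 6 of 6 libraries (adjusted p = 0.0625 for each, same permutation test). Their host genes had slightly more mRNA than those of circBase circRNAs, with a mean log2(FPKM + 0.5) of 3.68 ± 0.186 for published-list and 3.54 ± 0.199 for circBase circRNAs, higher in 6 of 6 libraries (adjusted p = 0.0625, same permutation test). Against the 3.85 ± 0.219 of circRNAs in no list, it was lower in 4 of 6 libraries (adjusted p = 0.2, same permutation test). Of the 8 comparisons, 0 passed the correction. The share found in another library is computed from the other libraries, and many circles and hosts recur between libraries. The 6 differences of a comparison are thus not independent, and its p-value does not measure a spread over circles or hosts.

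Within the published list, the reads per detected circRNA did not overlap between the genotypes, an observation made after the values were seen. They were 2.72, 3.09 and 2.69 in AQP5-/- libraries, against 2.55, 2.40 and 2.44 in wild type libraries. For circBase circRNAs the genotypes overlapped, with 4, 4.33 and 3.87 in AQP5-/- and 4.53, 3.74 and 3.96 in wild type libraries. A comparison of 3 with 3 libraries cannot give an exact permutation p below 0.1.

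Most of these circles were short. The median predicted length was 562 nt, where the mean was 798 nt, and the extremes were 124 and 7017 nt, and 820 of 1061 (77.3%) were at most 1000 nt long. The longest was a circle of Golgb1, the Golgi tethering protein giantin (chr16:36911872-36919796), with 1, 0 and 1 reads in AQP5-/- and 1, 2 and 0 reads in wild type libraries. The shortest was a circle of Phyhd1 (chr2:30274470-30274723), with 0, 4 and 0 reads in AQP5-/- and no read in wild type libraries. On the genome the ends lay a median of 9301 nt apart. For 51 circRNAs (4.81%) the predicted length equalled the genomic span, so that no intron lies between the ends in the prediction. The mean length of the circRNAs detected in a library was 839 ± 37.5 nt, against 826 ± 62.0 nt for circBase and 836 ± 105 nt for no list (SD, n = 6, adjusted p = 0.679 and 0.969, same permutation test), and the sign of both differences depended on the libraries and on the average used. The lengths are predictions from the annotation, and the reads do not show which exons a loop holds.

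All 1061 lay inside a RefSeq gene, as did the 447 of circBase and 520 of the 521 in no list. Few acceptors of published-list circRNAs stood near the end of the gene. The acceptor lay in the most upstream 25% of the host gene for 246 circRNAs (23.2%), in the next 25% for 387 (36.5%), in the 25% after that for 311 (29.3%) and in the most downstream 25% for 117 (11%). The share in the most downstream 25% was 10.7% for circBase circRNAs and 16.5% for circRNAs in no list. A published-list circle covered a median of 10.1% of its gene, against 7.87% for circBase circRNAs and 13.4% for circRNAs in no list. An end was shared with another circRNA of the table by 377 (35.5%), against 48.1% of circBase circRNAs and 24.0% of those in no list. These shares carry no test. Chromosome 2 held 114 of the circRNAs, chromosome 11 held 79 and chromosome 4 held 72, and 16 lay on the X chromosome.

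The circRNA with most reads was made by Oxr1, a gene of resistance to oxidative damage (chr15:41797474-41826052, 1715 nt), with 10, 9 and 22 reads in AQP5-/- and 21, 24 and 11 reads in wild type libraries. The genotypes overlapped, and the ratio of scaled reads was 0.743 (95% counting interval 0.484 to 1.13). Next came Tmem56, a membrane protein gene (chr3:121228310-121235764, 544 nt), with 15, 12 and 12 reads in AQP5-/- and 29, 14 and 10 reads in wild type libraries. The high value there was that of wild type library 1 alone. Mtus1, a microtubule-associated tumour suppressor gene (chr8:41076232-41084840, 2423 nt), had 11, 18 and 11 reads in AQP5-/- and 12, 21 and 18 reads in wild type libraries, again with overlap.

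Aass, an enzyme of lysine breakdown (chr6:23107140-23122737, 1293 nt), had 11, 10 and 10 reads in AQP5-/- and 9, 16 and 8 reads in wild type libraries. Its ratio was 0.953 (0.564 to 1.61). Kat6b, a histone acetyltransferase (chr14:21626719-21664748, 1629 nt), had 17, 6 and 6 reads in AQP5-/- and 16, 12 and 4 reads in wild type libraries, with library 1 highest in both genotypes. Nfkb1, which encodes the p105 precursor of a NF-kB transcription factor (chr3:135655500-135669339, 326 nt), had 2, 22 and 9 reads in AQP5-/- and 7, 6 and 6 reads in wild type libraries, and so varied most within the AQP5-/- libraries, from the lowest to the highest of all 6. Tet3, an enzyme of DNA demethylation (chr6:83402667-83404824, 2158 nt), had 5, 5 and 12 reads in AQP5-/- and 5, 5 and 0 reads in wild type libraries. Its ratio was 2.23 (1.01 to 5.28), with equal values shared by the genotypes.

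Of the 12 circRNAs with most reads, 0 passed the study's threshold (a fold change of at least 2, unadjusted p under 0.05). Over all 552 circRNAs tested, 2.36% were called higher and 6.7% lower, so 0 of 12 is no result about these circles. The adjusted p of the 12 ran from 0.971 to 0.997 (edgeR's quasi-likelihood test). Arhgap5, a GTPase activating protein gene (chr12:52516079-52542636, 4037 nt), had 2, 1 and 5 reads in AQP5-/- and 12, 6 and 2 reads in wild type libraries, a ratio of 0.406 (0.155 to 0.962). The counting interval did not include a ratio of 1, but the spread between libraries did not let it pass (adjusted p = 0.971, same edgeR test).

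**Figure D2:**
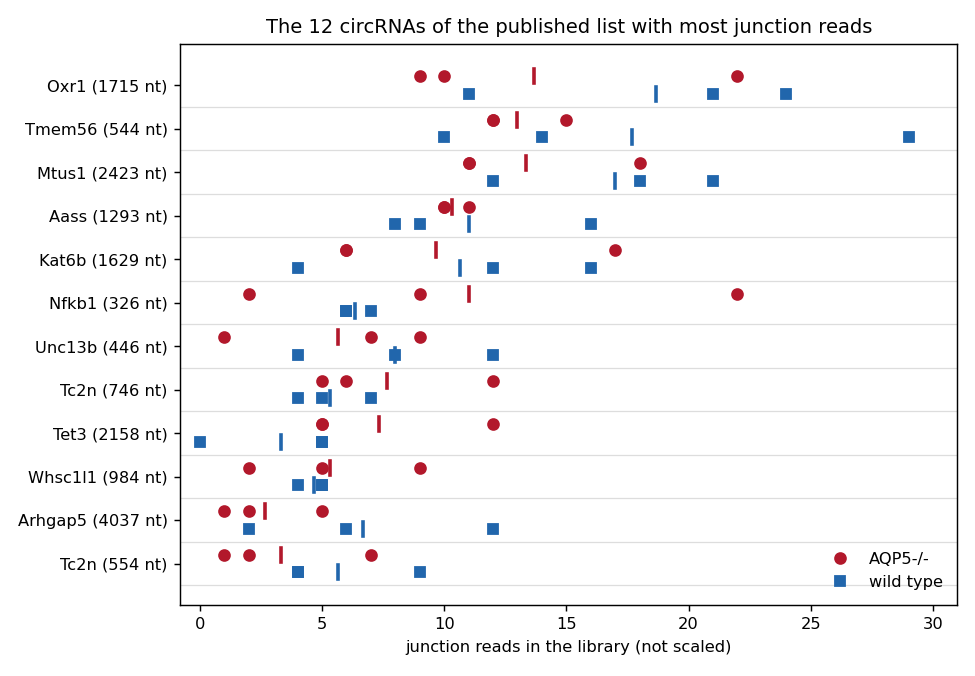
Junction reads (x axis) of the 12 published-list circRNAs with most reads, by host gene and predicted length, in AQP5-/- (circles, upper row of each gene) and wild type libraries (squares, lower row); short vertical bars are means of 3 libraries. The genotypes overlap for each of the 12, as for Oxr1 with 9 to 22 reads in AQP5-/- and 11 to 24 reads in wild type libraries. Over all 552 circRNAs tested, 9.96% did not overlap.

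Detection in all 6 libraries was limited to 23 circRNAs of 22 host genes with diverse roles. Insr, the insulin receptor (552 nt), had 3, 4 and 4 reads in AQP5-/- and 5, 2 and 4 reads in wild type libraries. Pik3r1, a regulatory subunit of phosphoinositide 3-kinase (582 nt), had 3, 2 and 5 reads in AQP5-/- and 3, 2 and 5 reads in wild type libraries. The genotypes overlapped for both, with ratios of 1.01 (0.399 to 2.58) and 1.01 (0.379 to 2.72). Other such circles came from Rps6kb1, a ribosomal S6 kinase, Lrp6, a Wnt co-receptor, Phkb, a subunit of phosphorylase kinase, Dusp16, a phosphatase of MAP kinases, Hibadh, an enzyme of valine breakdown, and Atp9a, a lipid flippase. Over all 552 circRNAs tested, 9.96% did not overlap between the genotypes. Among the 23, the genotypes did not overlap only for Glis3, a zinc finger transcription factor (chr19:28530873-28540408, 1322 nt). The Glis3 circle had 5, 7 and 6 reads in AQP5-/- and 2, 4 and 3 reads in wild type libraries. Its log2 fold change was 0.95 (standard error 0.920, adjusted p = 0.974, same edgeR test).

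A minority of the host genes gave several circles. Of the 788 host genes, 618 had 1 published-list circRNA, 114 had 2 and 56 had 3 or more. Ubn2, a subunit of a histone chaperone complex, gave 9, Rere, a transcriptional corepressor, gave 7, and Man2a1, a Golgi mannosidase of N-glycan processing, Nbas, a protein of retrograde transport to the endoplasmic reticulum, and Ash1l, a histone methyltransferase, gave 6 each. The 9 circles of Ubn2 together had 5, 12 and 10 reads in AQP5-/- and 5, 5 and 6 reads in wild type libraries, and 7 of the 9 are seen in the map of host genes with reads in a single genotype. Of all 1061, 353 had reads in AQP5-/- only, 354 in wild type only and 354 in both, so the 7 of 9 is no result about Ubn2. The 7 published-list circles of Rere together had 8, 11 and 6 reads in AQP5-/- and 6, 0 and 0 reads in wild type libraries, so that wild type libraries 2 and 3 had none of these. The 7 include 1 with 10 or more reads (chr4:150406196-150439468), at 7, 3 and 1 reads in AQP5-/- and 3, 0 and 0 reads in wild type libraries (log2 fold change 1.88, adjusted p = 0.971, same edgeR test). A circBase circle of Rere from the same acceptor (chr4:150406196-150406664) had 2, 3 and 11 reads in AQP5-/- and 3, 10 and 2 reads in wild type libraries, with overlap.

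Circles of a gene could begin at the same acceptor. The members used 965 acceptors, of which 76 served 2 or more of them and 16 served 3 or more, and 1005 donors, of which 51 served 2 or more and 4 served 3 or more. The acceptor of Man2a1 at position 64624528 of chromosome 17 served 7 circRNAs, 5 of them of the published list, with 10, 9 and 3 reads of these 5 in AQP5-/- and 5, 2 and 5 in wild type libraries. At the same acceptor, a circBase circle of 397 nt had 0, 0 and 1 reads in AQP5-/- and 9, 3 and 3 reads in wild type libraries, while the published-list circle of 1808 nt had 6, 0 and 2 reads in AQP5-/- and 4, 2 and 3 reads in wild type libraries. The short circle lay higher in each wild type library, and the long one overlapped. Tc2n, a gene of a protein with C2 domains, used an acceptor for 6 circRNAs, 4 of them listed, with 12, 25 and 13 reads of these 4 in AQP5-/- and 19, 11 and 14 in wild type libraries. Unc13b, which primes secretory vesicles for fusion, used another for 4 circRNAs: the published-list circle of 446 nt had 9, 1 and 7 reads in AQP5-/- and 8, 4 and 12 reads in wild type libraries, with overlap, while the circBase circle of 504 nt had 9, 3 and 6 reads in AQP5-/- and 29, 15 and 36 reads in wild type libraries, without overlap. Whether circles of a gene differed in their response was not tested.

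**Figure D3:**
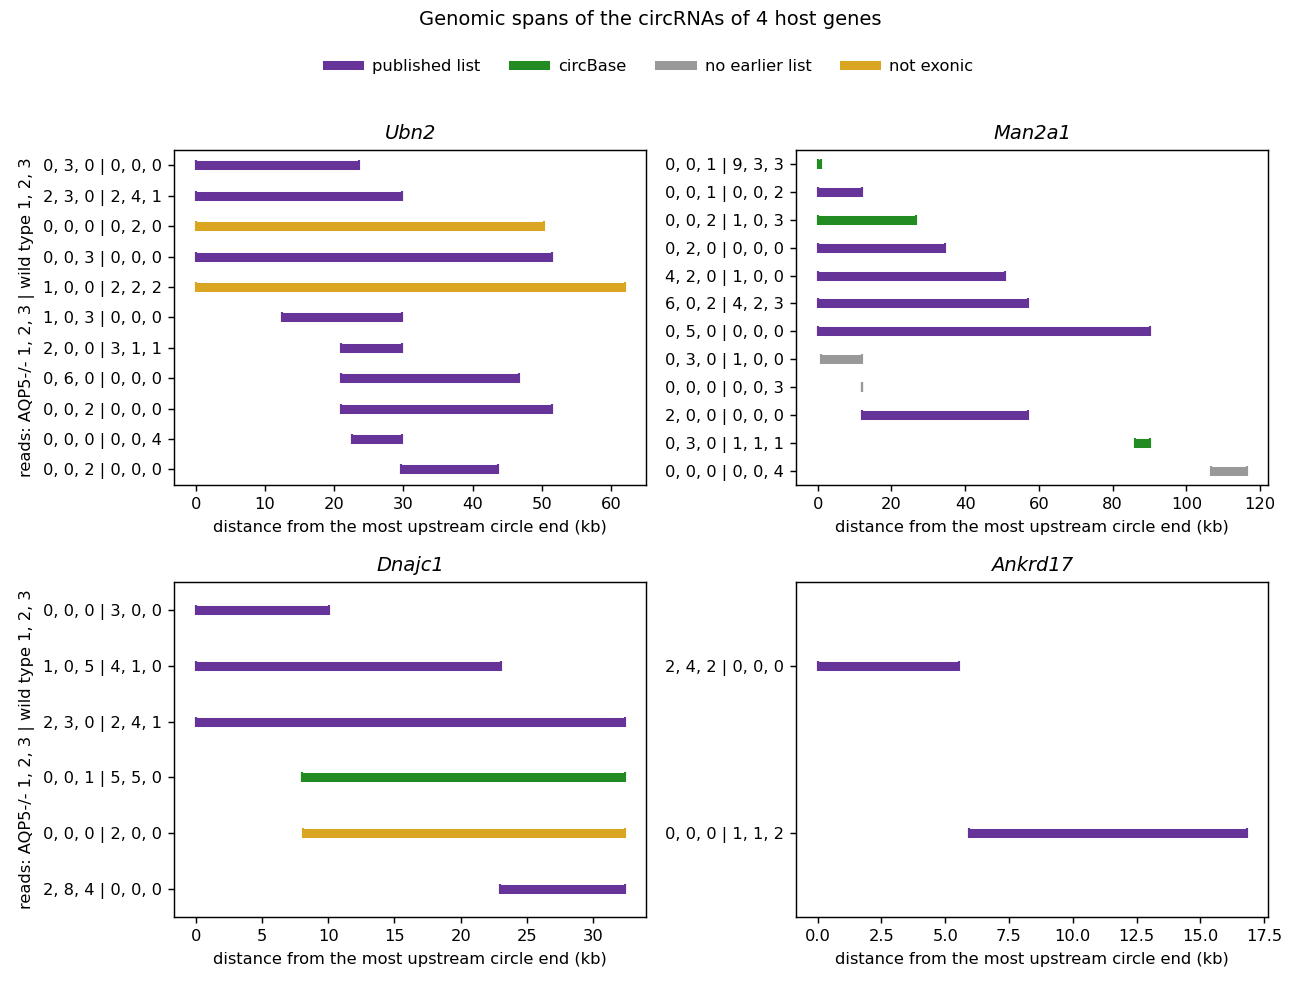
Genomic spans of the circRNAs of Ubn2, Man2a1, Dnajc1 and Ankrd17 along the direction of transcription (x axis, kb from the most upstream circle end), coloured by source; the labels on the y axis are junction reads in AQP5-/- libraries 1, 2, 3 and, after the bar, wild type libraries 1, 2, 3. In Man2a1 the upper 7 spans share an acceptor, and in Ankrd17 the 2 adjoining spans have reads in opposite genotypes (2, 4, 2 and 0, 0, 0 against 0, 0, 0 and 1, 1, 2).

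As a class, these circRNAs held 35.4%, 35.9% and 38.6% of the junction reads in AQP5-/- and 34.8%, 35.4% and 33.2% in wild type libraries. The mean was 36.6% ± 1.73 in AQP5-/- and 34.5% ± 1.15 in wild type libraries (SD, n = 3 each, p = 0.2, two-sided exact permutation test, smallest p 0.1), and the groups overlapped. Of the exonic junction reads alone they held 40.5%, 41.9% and 43.6% in AQP5-/- and 38.8%, 39.4% and 38.1% in wild type libraries. Here the genotypes did not overlap, with a difference of 3.28 percentage points (p = 0.1, same exact permutation test, the smallest it can give). In AQP5-/- libraries 298, 254 and 369 of them were detected, against 403, 300 and 312 in wild type libraries (p = 0.5, same exact permutation test). Wild type library 1, the deepest, had the most, and without it the difference of the means turned from -31.3 to 1 circRNAs. With each library thinned to 2032 reads it still had the most, at 351, beside 347 in AQP5-/- library 3. The difference was then -21.8 circRNAs (p = 0.4, same exact permutation test). Over all libraries, 353 were found in AQP5-/- only, 354 in wild type only and 354 in both. Of those found in a single genotype, 316 of the 353 in AQP5-/- and 289 of the 354 in wild type rested on 1 library.

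Between the genotypes, 222 of the 1061 passed the filter on low counts, which kept circRNAs detected in 3 or more of the 6 libraries, and the other 839 were left out by this filter. At the threshold used in the study, 8 were higher in AQP5-/- libraries and 13 were lower, where 2.36% and 6.7% of all 552 circRNAs tested were called higher and lower. No member reached an adjusted p under 0.05: the count was 0 with edgeR's quasi-likelihood test, its exactTest and DESeq2, against 21 members at an unadjusted p under 0.05, and the lowest adjusted p was 0.371. With exactTest 7 were higher and 4 lower at the threshold, with DESeq2 5 and 0, and without the filter, with all 1061 tested, 8 and 6. The median log2 fold change of the 222 was -0.10, beside -0.18 over all 552. Of the 21, 19 entered the test only because each library of a genotype had a read where the other genotype had 0, so they had to differ and their number supports nothing. Leaving out libraries changed the counts: 0 higher and 4 lower were called without AQP5-/- library 1, 1 and 2 without AQP5-/- library 2, 3 and 3 without AQP5-/- library 3, 6 and 0 without wild type library 1, 4 and 2 without wild type library 2, and 5 and 1 without wild type library 3. With a term for the libraries with Y-linked transcripts, chosen after seeing the data, 0 were higher and 2 lower.

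**Figure D4:**
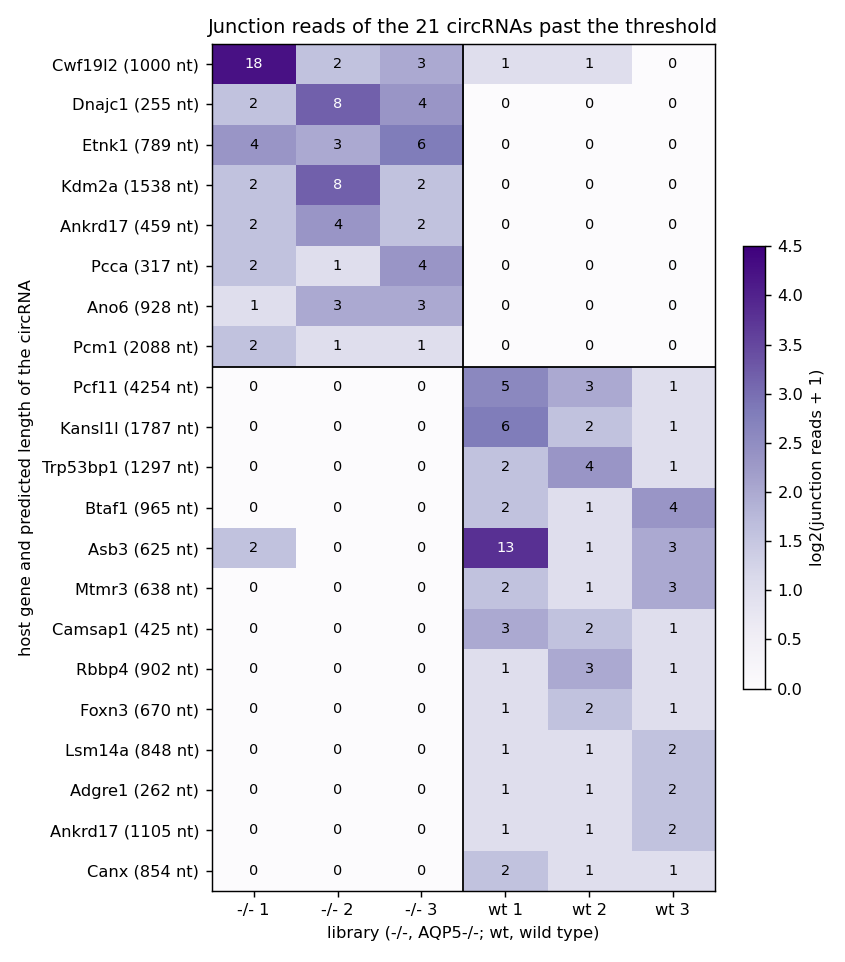
Junction reads of the 21 published-list circRNAs past the threshold in each library (columns; the vertical line divides AQP5-/- on the left from wild type on the right), by host gene and predicted length; colour is log2(reads + 1). The 8 rows above the horizontal line were higher in AQP5-/- libraries and the 13 below it lower, and 19 of the 21 had no read in a genotype.

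The higher circle with reads in both genotypes was that of Cwf19l2, whose yeast relative acts in splicing (chr9:3441055-3460131, 1000 nt), with 18, 2 and 3 reads in AQP5-/- and 1, 1 and 0 reads in wild type libraries. AQP5-/- library 1 held most of its reads, and the other 5 libraries had 0 to 3 reads. The log2 fold change was 3.36 (standard error 1.12, adjusted p = 0.371, edgeR's quasi-likelihood test), and it was 1.70 and no longer past the threshold without AQP5-/- library 1. The lower circle with reads in both was that of Asb3, a substrate adaptor of ubiquitin ligases (chr11:31055458-31061586, 625 nt), with 2, 0 and 0 reads in AQP5-/- and 13, 1 and 3 reads in wild type libraries. Here the genotypes overlapped, since wild type library 2 had fewer reads than AQP5-/- library 1. Its log2 fold change was -2.73 (standard error 1.26, adjusted p = 0.489), and it was -1.49 and no longer past the threshold without wild type library 1 (same edgeR test).

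The other 7 higher circles had no wild type read. For them a fitted fold change depends on the prior count, so the ratio to a floor of 3 reads over the wild type group is given. These circles entered the test through AQP5-/- reads alone, so the filter fixed the direction. The ratios and limits describe their reads and support no difference. The study took the circles of Dnajc1, Etnk1, Kdm2a and Ankrd17 named below to qRT-PCR, as it did that of Cwf19l2. It reported relative levels that matched its sequencing, and those measurements are not part of the data used here. This ratio leaves out the counting error of the AQP5-/- reads, so the lower limit of the 95% counting interval of the ratio stands beside it. Dnajc1, a co-chaperone of the endoplasmic reticulum (chr2:18284623-18294044, 255 nt), had 2, 8 and 4 reads in AQP5-/- libraries, 4.73-fold the floor (counting limit 3.36). Etnk1, an ethanolamine kinase of phospholipid synthesis (chr6:143180587-143197565, 789 nt), had 4, 3 and 6 reads, 4.4-fold the floor (counting limit 3.09). Kdm2a, a histone H3 lysine demethylase (chr19:4342847-4394892, 1538 nt), had 2, 8 and 2 reads, 4.06-fold the floor (counting limit 2.82). AQP5-/- library 2 was highest for Dnajc1 and Kdm2a, and library 3 for Etnk1. Smaller counts were those of Ankrd17, an ankyrin repeat protein gene (chr5:90298540-90304065; 2, 4 and 2 reads), Pcca, a subunit of propionyl-CoA carboxylase (2, 1 and 4 reads), Ano6, a phospholipid scramblase (1, 3 and 3 reads), and Pcm1, a centriolar satellite protein (2, 1 and 1 reads), at 1.35-fold to 2.71-fold the floor. The counting limits were 1.73 for Ankrd17, 1.46 for Pcca and Ano6 and 0.670 for Pcm1, so the interval of Pcm1 included a ratio of 1.

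Of the 13 lower circles, 12 had no AQP5-/- read. For them the upper limit of the 95% counting interval of the ratio of AQP5-/- to wild type reads is given. These circles entered the test through wild type reads alone, so the limits describe their reads and support no difference. Pcf11, a factor of mRNA 3′ end cleavage (chr7:92645990-92665865, 4254 nt), had 5, 3 and 1 reads in wild type libraries, and the limit was 0.514. Kansl1l, a relative of a histone acetyltransferase subunit (chr1:66762048-66802168, 1787 nt), had 6, 2 and 1 wild type reads and the same limit. In both, wild type library 1 was highest and library 3 had a single read. Trp53bp1, a DNA break repair protein (2, 4 and 1 wild type reads), and Btaf1, an ATPase that removes TATA-binding protein from DNA (2, 1 and 4), had limits of 0.704, and Mtmr3, a phosphoinositide phosphatase (2, 1 and 3), and Camsap1, which binds microtubule minus ends (3, 2 and 1), limits of 0.862.

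The lowest counts among the lower circles came from Rbbp4, a histone-binding protein (1, 3 and 1 wild type reads), Foxn3, a forkhead repressor (1, 2 and 1), Lsm14a, a processing body protein (1, 1 and 2), and Canx, the chaperone calnexin (2, 1 and 1). Adgre1, the macrophage marker F4/80, gave a circle (chr17:57419322-57420524, 262 nt) with 1, 1 and 2 wild type reads and none in AQP5-/- libraries. The summed level of the other 2 macrophage markers, Csf1r and Cd68, was 9.83 to 19.5 FPKM in AQP5-/- and 7.09 to 10.2 FPKM in wild type libraries, and its part in the result was not tested. For Rbbp4, Foxn3, Lsm14a, Adgre1, Canx and the second circle of Ankrd17, the counting interval of the ratio reached above 1 (1.11 to 1.54). The adjusted p of all 21 called circles ran from 0.371 to 0.510 (same edgeR test).

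Genes of the called circles could make other circles with reads in the opposite genotype, and how often other host genes did so was not compared. For 17 of the 21, the host gene had at least 1 other circRNA in the table, and for 12 of them (5 higher and 7 lower) another circle of the gene had reads in the genotype in which the called one was lower. Ankrd17 shows this with 2 listed circles that adjoin each other: the one at chr5:90298540-90304065 (459 nt) had 2, 4 and 2 reads in AQP5-/- and none in wild type libraries, and the one at chr5:90287249-90298134 (1105 nt) had none in AQP5-/- and 1, 1 and 2 reads in wild type libraries. Ankrd17 mRNA was not called, with a log2 fold change of -0.09 (standard error 0.123, limma). Etnk1 gave a second circle of 628 nt from the same acceptor, with 0, 0 and 0 reads in AQP5-/- and 2, 0 and 2 reads in wild type libraries. In Dnajc1 the 5 other circles had 12 reads in AQP5-/- and 27 in wild type libraries, and in Kansl1l the 4 others had 14 reads in AQP5-/- and 12 in wild type libraries.

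Non-overlap of the genotypes was found for 24 of the 222 tested, beside 9.96% of all 552. Of the 24, 20 were among the called circles. The other 4, named after their values were seen, were Glis3, given above, Arhgef28, Tm9sf3 and Ubqln1. Arhgef28, a guanine nucleotide exchange factor, had 5, 5 and 2 reads in AQP5-/- and 1, 1 and 0 reads in wild type libraries (log2 fold change 2.41, adjusted p = 0.782, same edgeR test). Tm9sf3, a Golgi membrane protein, had 3, 4 and 4 reads in AQP5-/- and 2, 0 and 0 reads in wild type libraries (2.34, adjusted p = 0.899). Ubqln1, a shuttle of the proteasome, had 4, 4 and 5 reads in AQP5-/- and 0, 0 and 3 reads in wild type libraries (1.96, adjusted p = 0.933). All 4 had more reads in each AQP5-/- library than in any wild type library, by as little as 1 read. None of these 4 passed the threshold.

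Host genes were grouped by 11 lists of gene function. The lists were written from general knowledge with some hosts already known, so their shares are no evidence of an excess, and no set test was run. The counts of called circles in each list stand beside 2.36% higher and 6.7% lower over all 552, and all called circles but those of Cwf19l2 and Asb3 entered the test through reads in a single genotype, so these counts support nothing about a list. Among genes with a mean of at least 0.5 FPKM, 757 of 11772 (6.43%) hosted a published-list circRNA. The share was 39 of 78 (50%) in the list of chromatin and histone modification, 24 of 71 entries (33.8%) in RNA processing and translation, 22 of 68 (32.4%) among ubiquitin ligases and deubiquitinases, and 7 of 43 (16.3%) in endoplasmic reticulum folding and glycosylation. The 64 circles of the chromatin genes had 63, 45 and 76 reads in AQP5-/- and 69, 45 and 38 reads in wild type libraries, with overlap, and of the 13 tested 1 was higher (Kdm2a) and 0 lower, with a median log2 fold change of 0.56 beside -0.18 over all 552.

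The 42 circles of RNA processing genes had 41, 41 and 58 reads in AQP5-/- and 32, 21 and 39 reads in wild type libraries, without overlap, and of 11 tested 1 was higher (Cwf19l2) and 1 lower. That list contains Cwf19l2, and without its called circle the reads were 23, 39 and 55 in AQP5-/- and 31, 20 and 39 in wild type libraries, which overlapped. Its other large circle was that of Xrn2, a nuclear exonuclease, with 2, 0 and 10 reads in AQP5-/- and 3, 3 and 2 reads in wild type libraries, which overlapped. Genes of membrane traffic and secretion gave 46 circles with 38, 19 and 33 reads in AQP5-/- and 35, 33 and 39 reads in wild type libraries, of which 6 were tested and 0 called. Transcription factors gave 32 circles (10 tested, 0 higher and 1 lower), protein kinases and phosphatases 35 (13 tested, 0 higher and 1 lower), and GTPase regulators 31 (10 tested, 0 called). Ubiquitin ligases and deubiquitinases gave 26 (5 tested, 0 called), ion channels, pumps and transporters 19 (5 tested, 1 higher), matrix, adhesion and cytoskeleton genes 20 (6 tested, 2 higher and 1 lower), and endoplasmic reticulum genes 17 (8 tested, 1 higher and 1 lower).

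Of 23 regulators of circRNA formation and decay, 3 themselves made listed circles, with 9 reads in all and too few libraries for a test. Esrp1, an epithelial splicing regulator, had 0, 4 and 0 reads in AQP5-/- and none in wild type libraries. Qk, a splicing factor that promotes circRNA formation, had 0, 0 and 2 reads in AQP5-/- and 1, 0 and 0 reads in wild type libraries. Mettl3, the RNA adenosine methyltransferase, had 0, 0 and 2 reads in AQP5-/- libraries and none in wild type. At the mRNA level, 21 of the 23 regulators were tested and 0 passed the threshold, beside 1.16% higher and 0.883% lower of all 11772 genes. Of the 21, 5 had an unadjusted p under 0.05 (limma), for which the share of all genes is not given here. The median log2 fold change of the 21 was -0.29, beside -0.12 over all genes.

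The mRNA of the host genes was measured in the same libraries as FPKM. Their median level was 10.8 FPKM, against 5.55 FPKM over all genes tested. At the same threshold, 8 of the 757 hosts tested were higher and 3 were lower in AQP5-/- libraries, beside 1.16% and 0.883% of all 11772 genes. With limma 0 had an adjusted p under 0.05 (lowest 0.431), beside 0.017% of all genes, against 108 at an unadjusted p under 0.05. The share of all genes at that unadjusted p is not given here, so the 108 is no result about the hosts. The count of 0 rested on wild type library 2. Without it, 83 host gene entries (16 higher and 67 lower) had an adjusted p under 0.05 (limma), as did 933 of all genes tested. In that setting genotype coincides with Y-linked transcripts, so these calls cannot be credited to either. The 8 higher were the Y-linked Ddx3y and Uty, the flavin monooxygenase gene Fmo5, the organic anion exporter gene Abcc2, the core fucosyltransferase gene Fut8, Gm5724, Ttc39c and Epsti1.

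For 7 of the 8, wild type library 2 stood near or among the AQP5-/- libraries. Fmo5 mRNA was at 103, 104 and 105 FPKM in AQP5-/- and 5.80, 101 and 4.47 FPKM in wild type libraries. Abcc2 mRNA was at 56.0, 59.0 and 47.4 FPKM in AQP5-/- and 0.382, 67.4 and 1.23 FPKM in wild type libraries. Fut8 mRNA was at 19.9, 18.5 and 15.4 FPKM in AQP5-/- and 2.5, 13.8 and 2.71 FPKM in wild type libraries. In each, wild type libraries 1 and 3, those without Y-linked transcripts, were the low ones. Epsti1, at 1.85, 4.55 and 4.36 FPKM in AQP5-/- and 0.673, 1.72 and 1.52 FPKM in wild type libraries, was the exception, with wild type library 2 below all AQP5-/- libraries. Without wild type library 2, 15 hosts were higher and 20 lower, and the counts were 5 and 2 without AQP5-/- library 1, 1 and 2 without AQP5-/- library 2, 3 and 1 without AQP5-/- library 3, 2 and 1 without wild type library 1 and 3 and 0 without wild type library 3.

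The circles of these 8 genes followed the same libraries. Their published-list circRNAs together had 4, 8 and 14 reads in AQP5-/- libraries and 0, 19 and 0 reads in wild type libraries. The circle of Fmo5 (chr3:97635511-97645920, 1048 nt) had 0, 3 and 1 reads in AQP5-/- and 0, 4 and 0 reads in wild type libraries, and that of Gm5724 (chr6:141736105-141754469, 740 nt) had 0, 0 and 6 reads in AQP5-/- and 0, 4 and 0 reads in wild type libraries. No read of any of them fell in wild type library 1 or 3. On the Y chromosome lay 3 published-list circRNAs. Uty, a histone demethylase gene, gave a circle with no AQP5-/- read and 0, 2 and 0 reads in wild type libraries (chrY:1131036-1158634), and a second with 2, 0 and 0 reads in AQP5-/- and 0, 1 and 0 reads in wild type libraries (chrY:1136848-1158634). Ddx3y, an RNA helicase gene, gave a circle with 0, 0 and 2 reads in AQP5-/- and none in wild type libraries. The 3 lower hosts were Ttc6, Nckap5 and Adcy2, an adenylyl cyclase gene, whose circles had 2, 0 and 2 reads in AQP5-/- and 2, 0 and 0 reads in wild type libraries.

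**Figure D5:**
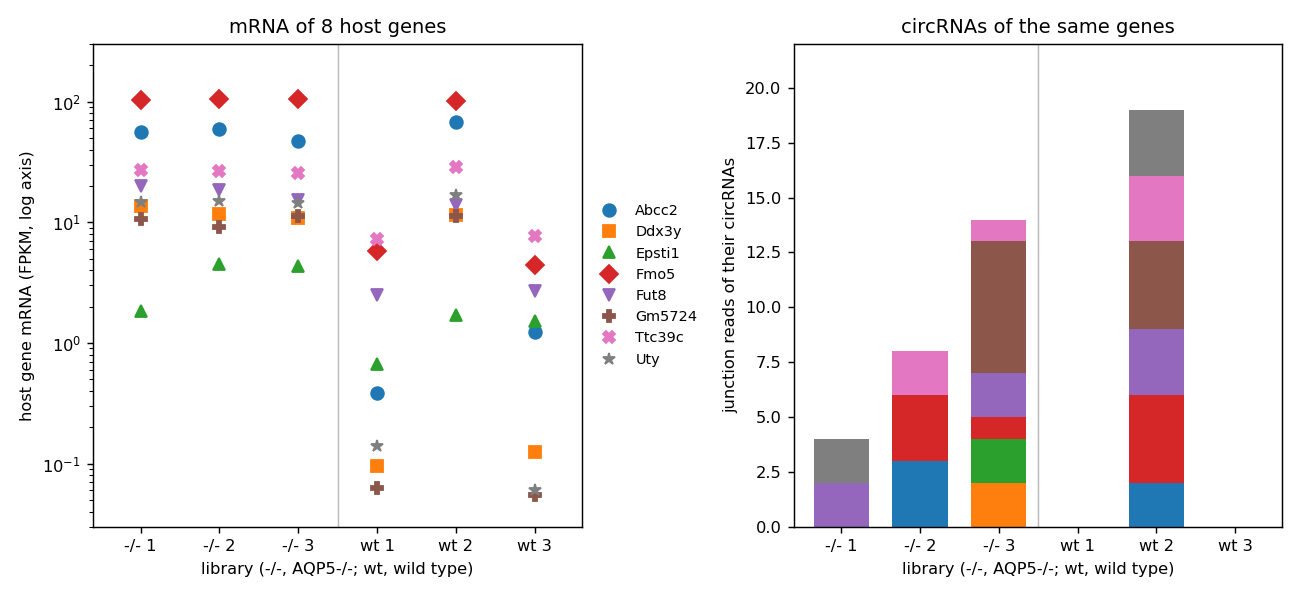
Left, mRNA of the 8 host genes past the threshold in the higher direction (FPKM, log axis) in the AQP5-/- libraries and, right of the grey line, the wild type libraries. Right, junction reads of the published-list circRNAs of the same genes, stacked in the same colours: 4, 8 and 14 in AQP5-/- libraries and 0, 19 and 0 in wild type libraries 1, 2 and 3.

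The hosts of the called circles did not pass the threshold at the mRNA level where they could be tested. Over all 11772 genes, 1.16% passed it as higher and 0.883% as lower, so this is no result about these hosts. For Dnajc1 mRNA the log2 fold change was 0.03 (standard error 0.134), for Etnk1 mRNA -0.20 (standard error 0.127), for Kdm2a mRNA -0.19 (standard error 0.201) and for Cwf19l2 mRNA -0.02 (standard error 0.166). Those of Pcf11 and Kansl1l, whose circles were lower, were -0.26 (standard error 0.190) and -0.37 (standard error 0.169). The largest was that of Camsap1, at -0.70 (standard error 0.182, adjusted p = 0.431, limma). The median over all hosts was -0.17, beside -0.12 over all genes tested. An FPKM value counts reads on all exons of a gene, so reads from inside a circle may be part of it.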

How the data were processed

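Total RNA of lacrimal glands was depleted of ribosomal RNA and sequenced in 3 AQP5-/- and 3 wild type libraries. The authors trimmed reads with cutadapt 1.9.3, aligned them to mm10 with STAR 2.5.1b and detected circRNAs with DCC, and the deposited junction read counts are raw whole numbers. Their normalised columns (12 per-sample columns in all, made with edgeR 3.16.5 for circRNAs) were not used, nor were columns of fold changes and p-values. The authors made the mRNA FPKM values with HISAT2 2.0.4 and Cuffdiff 2.2.1, fragments scaled by transcript length and by the mapped total of the library.

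Members were the exonic entries credited to an earlier publication. The members, the 11 host gene lists and the markers were chosen with earlier results of these data known. Junction reads were tested with edgeR 4.0.16 (R 4.3.3, quasi-likelihood F test, TMM factors) over all circRNAs with a read in at least 3 libraries, and mRNA with limma 3.58.1 on log2(FPKM + 0.5) over genes with a mean of at least 0.5 FPKM, so fold changes of low mRNAs are understated. P-values were adjusted by Benjamini and Hochberg over all features tested. The tests were checked on simulated data with known changes. Ratios of reads scaled by library size have exact conditional binomial intervals (95%), and they cover counting error only, since reads without molecular identifiers are not independent molecules. A wild type group without reads was set to 3 reads for ratios to a floor. Shares and detection were compared by exact permutation tests, and classes by sign flips over the 6 libraries (scipy 1.17.1). The rule named Aqp5, the 12 members with most reads, members past the threshold, in all 6 libraries or in each library of only a single genotype, those the study took to qRT-PCR, the longest and shortest, hosts with most members and up to 4 members of each host list. Members around microRNA genes, on the Y chromosome, at shared acceptors or of called host mRNAs were named after their values were seen. Positions refer to mm10, and gene bounds and microRNAs to RefSeq GRCm38.p6. DESeq2 1.42.0, other scalings and filters, each library left out and the replicate block were tried as alternatives. No exon sequence of the circles was read.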

Additional observations from a re-analysis of the deposited data

How the results depend on the processing

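edgeR's quasi-likelihood test called 8 members higher and 13 lower in AQP5-/-. DESeq2 called 5 and 0 and edgeR's exactTest 7 and 4, all of them among the 21. A test without a filter on low counts called 8 and 6 (8 of them among the 21), and a minimum of 10 reads 4 and 2 (5 among the 21). With a term for libraries with Y-linked transcripts, added after seeing the data, 0 were higher and 2 lower, and this term leaves wild type library 2 alone against the AQP5-/- libraries. Leaving out 1 library gave 0 to 6 higher and 0 to 4 lower members. The count at an adjusted p under 0.05 was 0 in every setting run. The cause of these shifts was not tested.

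Same-numbered libraries did not deviate together, with correlations of -0.0112, -0.0214 and -0.0667 for circRNAs and -0.139, -0.184 and -0.150 for mRNAs. Small counts weaken such a correlation, so the circRNA values cannot decide whether the numbers pair the libraries. The mRNA values gave no sign of a pairing. With the replicate block, 4 members were higher and 0 lower, 5 host mRNAs were lower, and the differences in read share and detected members were 2.16 percentage points and -31.3 circRNAs.

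Host mRNAs higher in AQP5-/- (8) numbered 4 without a filter on low values and 1 to 15 with a library left out. Those lower (3) numbered 6 with a pseudocount of 0.1, 1 without the filter, 1 after centring on the median and 0 to 20 with a library left out. At an adjusted p under 0.05, 83 host entries were called without wild type library 2 and 0 in every other setting run. Without that library genotype coincides with Y-linked transcripts, so they cannot be told apart.

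The difference in detected members (-31.3) was 0.333 with at least 2 reads in the library and 7 among libraries with Y-linked transcripts (added after seeing the data). It was -21.8 with each library thinned to the smallest total and -62.3 to 1 with a library left out. The length difference against circBase (13.7 nt) was -22.8 nt with at least 2 reads and -6.87 to 39.8 nt with a library left out, and that against no list (3.51 nt) was -11.7 nt with at least 2 reads, -35.8 nt for medians and -27.4 to 25.5 nt with a library left out. Reads per detected circRNA against no list (-0.17) differed by 0.0948 with at least 2 reads. The share of reads kept its sign in every setting run. Over the named members, 742 values stayed on their side of the threshold, 121 fell below it and 2 passed it, and 79 values of 29 uncalled members changed sign without passing it. At 2032 to 2953 junction reads a library, the filter on low counts left out 839 of 1061 members.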
